A study of Mus musculus with 2 samples.

Results

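Genes of arginine metabolism and alternative macrophage activation were followed through the injured mouse spinal cord: Arg1, Nos2, Odc1, Slc7a2, Chil3, Retnla, Clec10a, Il4ra, Il10 and Il10ra. They were taken by symbol from the feature table, 10 of 31053 genes, and each symbol matched 1 gene. The cells came from 1 library of cord labelled as treated with an HDAC3 inhibitor and 1 library labelled as vehicle, both taken 5 days after injury and prepared with a droplet 3' kit. The compound and dose, and the strain, age and number of the mice, were not given in the sources used here. With 1 library per condition there is no replicate check and no test: every interval below is a 95% interval that covers counting error only.

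Arginine is shared by competing enzymes. Arginase 1 (Arg1) splits it into urea and ornithine, which ornithine decarboxylase (Odc1) turns into polyamines, whereas inducible nitric oxide synthase (Nos2) turns it into nitric oxide, and the cationic amino acid transporter Slc7a2 brings it into the cell. In mouse macrophages interleukin 4, acting through its receptor chain Il4ra and STAT6, induces Arg1, the chitinase-like lectin Chil3 (Ym1), the resistin-like protein Retnla (Fizz1) and the galactose-binding lectin Clec10a, while microbial products with interferon gamma induce Nos2. Interleukin 10 (Il10) damps inflammation through a receptor whose ligand-binding chain is Il10ra.

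After filtering, 2954 cells of the HDAC3 inhibitor library and 2164 cells of the vehicle library were kept, with medians of 9701.5 and 10245 unique molecular identifiers (UMIs, counted transcripts) per cell. Of 28 clusters, 25 took a name from marker genes and formed 15 classes, each written with "-like", and levels are counts per 1000000 UMIs of a class (CPM). In all pairs of values the HDAC3 inhibitor library comes first. The macrophage-like class was 1 cluster of 524 and 251 cells, led by Spp1, Gpnmb, Lyz2 and Trem2, in which the 8 macrophage markers summed to 18741.6 and 17174.3 CPM and the 10 microglia markers to 1883 and 1927 CPM, none at 0. The microglia-like class was 1 cluster of 361 and 379 cells, in which those sums were 753 and 832 CPM, and 8064 and 8806 CPM. Markers alone do not tell whether a macrophage-like cell came from blood or from the cord. Monocyte-like cells formed cluster 16 (28 and 41 cells) and cluster 24 (29 and 8 cells), which are described apart because the larger of them was not the same one in each library. Cluster 7, with 199 cells, carried macrophage and microglia markers alike and stayed unnamed. The libraries shared 10 barcodes.

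Chil3 and Retnla, both secreted products of alternatively activated mouse macrophages, stood at opposite ends here: kept cells held 25224 UMIs of Chil3 and 0 UMIs of Retnla. Their promoters are shown for that contrast, from RefSeq on GRCm38.p6, each running from 250 bases before the annotated start to 50 bases past it. The Chil3 window is chr3:106167515-106167814 on the minus strand and the Retnla window is chr16:48842359-48842658 on the plus strand. Capitals mark matches, on either strand, to TATAAA, to TTC and GAA with 4 bases between (the spacing bound by STAT6) and to TTNCNNAA (letters bound by C/EBP factors), and no match overlaps another in these windows.
Chil3: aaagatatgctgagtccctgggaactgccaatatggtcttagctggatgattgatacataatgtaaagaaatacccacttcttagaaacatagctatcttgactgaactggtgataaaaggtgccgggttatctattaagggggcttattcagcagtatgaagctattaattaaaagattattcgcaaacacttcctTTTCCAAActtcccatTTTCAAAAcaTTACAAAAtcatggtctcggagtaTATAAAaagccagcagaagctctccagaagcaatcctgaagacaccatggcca
Retnla: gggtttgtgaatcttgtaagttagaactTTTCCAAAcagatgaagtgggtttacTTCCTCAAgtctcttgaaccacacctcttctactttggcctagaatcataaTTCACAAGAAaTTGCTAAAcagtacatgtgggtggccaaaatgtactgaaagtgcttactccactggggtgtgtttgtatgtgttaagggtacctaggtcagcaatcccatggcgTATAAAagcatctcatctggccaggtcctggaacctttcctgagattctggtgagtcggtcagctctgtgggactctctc
TATAAA begins 3 bases before the annotated start of Chil3, and so spans it, and begins 30 bases before that of Retnla, and 13.6% of 32851 promoters of this length hold it. The TTC and GAA spacing occurs once, beginning 145 bases before the start of Retnla, and 6.95% of promoters hold it. TTNCNNAA occurs 3 times in each window, and 40.7% of promoters hold it. A match is a stretch of letters and not a site, and the absence of one says only that these letters are not in the window. Of the 10 genes, 4 had a promoter in this table, the others being Odc1 and Il4ra, whose windows hold none of these letters.

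Arg1 (chromosome 10, 24915221 to 24927484, minus strand, GRCm38) was carried by a minority of macrophage-like cells and was at or near 0 in microglia-like ones. The macrophage-like class held 736 of its 944 UMIs. There its level was 45.9 CPM (42.2 to 49.7) in the HDAC3 inhibitor library and 21.2 CPM (18.0 to 24.8) in the vehicle library, and these intervals do not overlap. They count each UMI as a separate draw, although a few cells held most of the Arg1 UMIs. Microglia-like cells held 0 and 1 UMIs of Arg1, neutrophil-like cells held 0 and 0, and oligodendrocyte-like and endothelial-like cells, which should lack the gene, each held 1 and 1. A count of 0, read as room for 3 UMIs, allows up to 0.727 CPM for the first of these microglia-like values, and 3.14 and 1.93 CPM for the neutrophil-like cells.

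Most macrophage-like cells had no Arg1 UMI. In the HDAC3 inhibitor library 93 of 524 cells had at least 1 (17.7%), and in the vehicle library 30 of 251 (12.0%), at median depths of 23677 and 27816 UMIs per cell. With every cell thinned to 2000 UMIs the shares were 4.41% and 1.99%. The richest 5% of cells held 76.9% and 88.4% of the Arg1 UMIs, and the top cells held 50 and 49. At least 5 UMIs were found in 30 cells of the HDAC3 inhibitor library (5.73%, 3.90 to 8.07) and in 6 cells of the vehicle library (2.39%, 0.882 to 5.13), so the intervals of that share overlap.

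**Figure D1:**
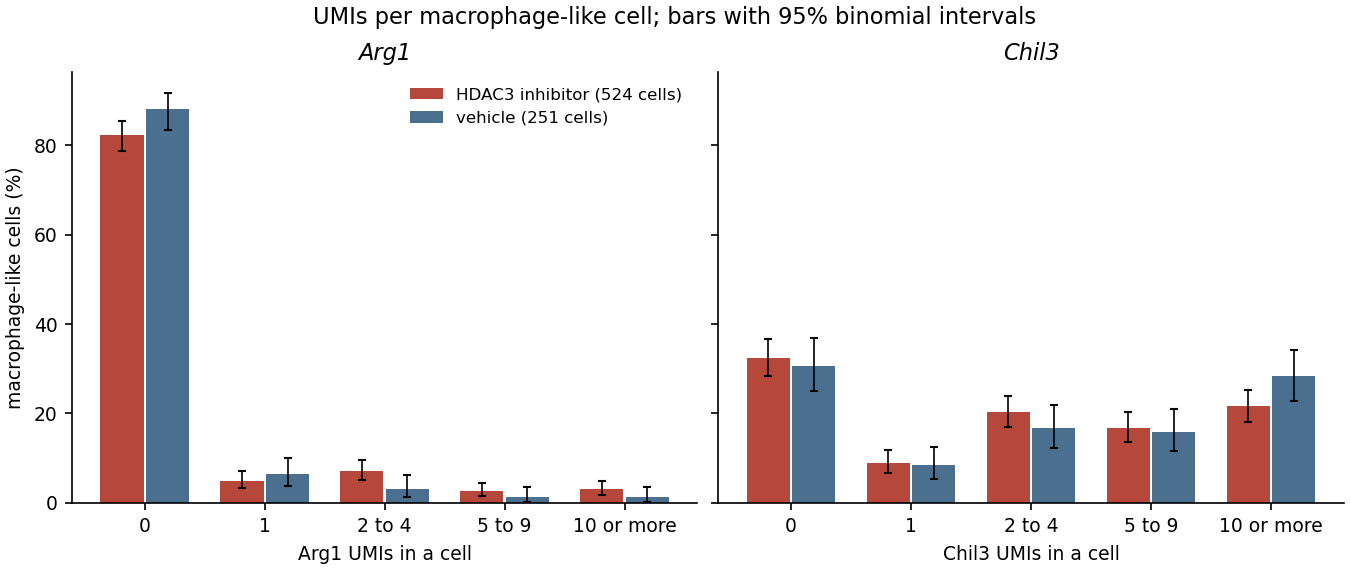
Share of macrophage-like cells (%) by the number of Arg1 UMIs (left) and Chil3 UMIs (right) in a cell, by library, with 95% binomial intervals. Arg1 was at 0 in 431 of 524 and 221 of 251 cells, whereas 113 and 71 cells held 10 or more UMIs of Chil3.

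The rest of Arg1 lay in a few monocytes and cycling cells. Cluster 16, monocyte-like cells led by Plac8, Chil3 and Ly6c2, had 80 and 6 UMIs, or 269.9 CPM (214 to 336) and 10.2 CPM (3.76 to 22.3). Of those 80 UMIs, 68 sat in 1 cell. Cluster 24, the other monocyte-like cluster, had none. Cluster 14, an unnamed set of 96 cells with neutrophil, microglia and cycling genes, had 75 and 32 UMIs, and 72 of these sat in 2 cells whose own markers were those of monocytes.

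Macrophage-like cells rich in Arg1 were set beside those without it. The cells were picked on Arg1 after its values had been seen, so the contrast is a description. The 36 cells with 5 or more Arg1 UMIs had a median of 32941.5 UMIs against 23821.5 in the 652 cells with none. Chil3 was at 206 CPM (181 to 233) in the Arg1-rich cells and 272 CPM (264 to 280) in the cells without Arg1, both libraries pooled. The libraries were not alike in this. In the HDAC3 inhibitor library 12 Arg1-rich cells held 5 or more Chil3 UMIs and 18 did not, beside 189 and 305 of the other cells. In the vehicle library these numbers were 0 and 6, beside 111 and 134. Odc1, next after arginase on the path to polyamines, was at 37.4 CPM (27.4 to 49.9) against 42.4 CPM (39.3 to 45.7). Slc7a2, the importer, was at 17.1 CPM (10.6 to 26.1) against 10.1 CPM (8.61 to 11.8). The Odc1 and Slc7a2 intervals overlap, as do those of Il4ra and Il10ra, and Nos2 and Retnla had 0 UMIs in both sets.

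**Figure D2:**
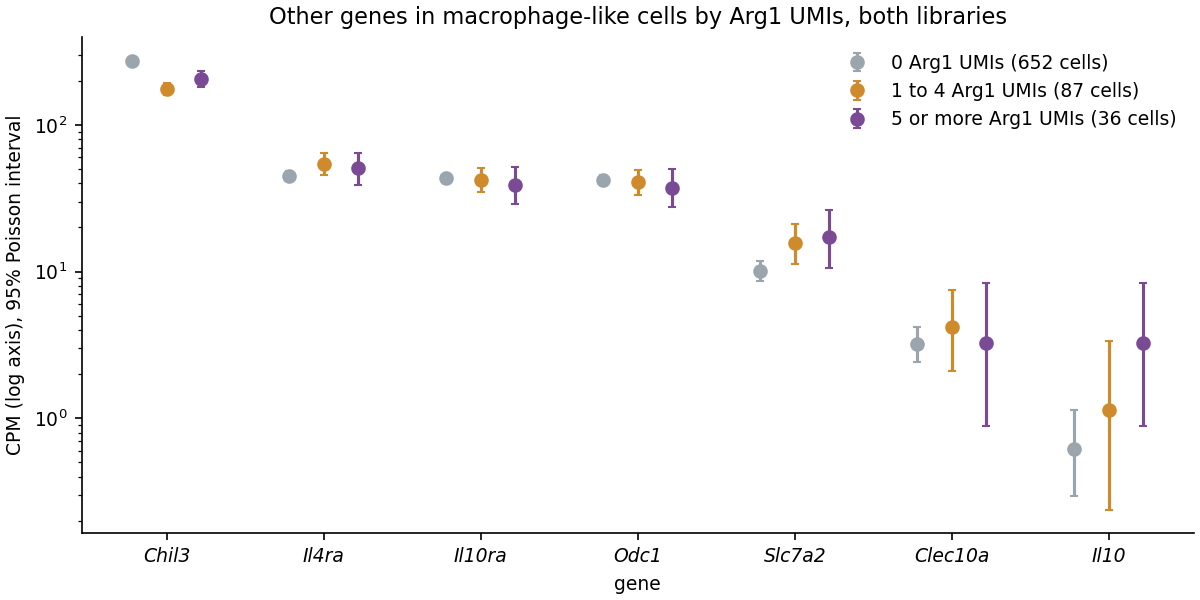
Level (CPM, log axis) of other genes in macrophage-like cells with 0, 1 to 4, and 5 or more Arg1 UMIs, both libraries together, with 95% Poisson intervals. Of the 36 cells with 5 or more, 30 came from the HDAC3 inhibitor library and 6 from the vehicle library. Chil3 sat at 177 and 206 CPM in the sets with Arg1 and at 272 CPM in the set without it, while the Odc1, Il4ra and Il10ra intervals of the 0 and 5-or-more sets overlap.

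Among 2114 genes compared in the same way, those highest in Arg1-rich cells included the chemokine Pf4 (818 against 150.4 CPM), the monocyte attractant Ccl2 (249.8 against 47.0 CPM) and fibronectin, Fn1 (326 against 69.3 CPM). Pf4 and Ccl2 were higher in Arg1-rich cells of both libraries, whereas Fn1 was at 393 against 79.2 CPM in the HDAC3 inhibitor library and 57.4 against 54.0 CPM in the 6 Arg1-rich cells of the vehicle library. A single cell held 51.3% of the Pf4 UMIs of the Arg1-rich set. Lowest there was Prss34 (0 against 52.9 CPM), which in cells without Arg1 was at 81.4 and 8.41 CPM in the 2 libraries. Next were the cytokine Il1b (35.0 against 151.6 CPM), the MHC class II chaperone Cd74 (26.9 against 103.9 CPM) and the monocyte antigen Ly6c2 (25.2 against 80.6 CPM). Over the 28 clusters, the genes whose log2 level followed Arg1 most closely were Ctsg (Pearson r = 0.92), Tfec (0.90), Prtn3 (0.84), Elane (0.83) and F13a1 (0.82), out of 11675. Ctsg, Prtn3 and Elane encode granule proteases of myeloid progenitors. Inside cluster 16 the cells did not follow that order: the 16 cells with 5 or more UMIs of progenitor markers held 2 UMIs of Arg1 (6.81 CPM), and the 53 other cells held 84 (142.8 CPM), 68 of them in 1 cell. All clusters share the same libraries, so r is a description.

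Arg1 and Chil3 were found both together and apart in single macrophage-like cells. At 5 or more UMIs of each, 12 cells of the HDAC3 inhibitor library held both, 18 held Arg1 alone, 189 held Chil3 alone and 305 held neither. In the vehicle library these numbers were 0, 6, 111 and 134. The shares that follow pool both libraries. At 2000 UMIs per cell, Chil3 was found in 5 of 28 Arg1-positive cells (17.9%, 6.06 to 36.9) and in 33.6% of Arg1-negative cells (30.2 to 37.1). At each cell's own depth the shares were 61.0% (51.8 to 69.6) and 69.5% (65.8 to 73.0), and with at least 2 UMIs of each gene they were 42.0% (31.1 to 53.5) and 61.4% (57.6 to 65.0). Only the last of these pairs of intervals is apart.

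The IL-4 receptor chain gave the opposite picture at that setting and not at equal depth. With at least 2 UMIs of each gene, Il4ra was found in 49.4% of Arg1-positive cells (38.1 to 60.7) and 27.8% of Arg1-negative cells (24.5 to 31.3), whose median depths were 31357 and 24046 UMIs. At 2000 UMIs per cell it was found in 1 of 28 Arg1-positive cells (3.57%, 0.0904 to 18.3) and 9.93% of the others (7.88 to 12.3). For Odc1 at 2000 UMIs the shares were 10.7% (2.27 to 28.2) and 8.05% (6.202 to 10.2), and for Slc7a2 they were 0 of 28 (up to 12.3%) and 3.89% (2.62 to 5.54), with overlap in each case.

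Nos2 (chromosome 11, 78920787 to 78960254, plus strand) was not detected in any macrophage-like, microglia-like or neutrophil-like cell, and nearly all of its UMIs lay in the lining of vessels. A count of 0 allows 0.237 and 0.410 CPM in macrophage-like cells and 0.727 and 0.585 CPM in microglia-like cells. Endothelial-like cells held 97 of its 132 UMIs, and 33 lay in cluster 12, which mixed endothelial and red cell genes. In endothelial-like cells its level was 10.5 CPM (7.75 to 13.9) and 13.3 CPM (9.81 to 17.5), with a UMI in 41 of 417 and 37 of 311 cells and at most 4 in a cell. The ratio between the libraries there was 0.793 (0.521 to 1.21), an interval that includes equal levels.

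Odc1 (chromosome 12, 17544794 to 17551505, plus strand) was found in every class, and macrophage-like cells were among its lower sites. Ependymal-like cells had 394 CPM (359 to 432) and 367 CPM (318 to 422), with a UMI in 144 of 186 and 67 of 74 cells. Schwann-like cells followed with 261 CPM (220 to 308) and 249 CPM (214 to 287). The places of T/NK-like cells (273 and 134 CPM from 51 and 14 cells) and astrocyte-like cells (144 and 429 CPM from 30 and 15 cells) in this order were not the same in the libraries.

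Lower in the order of Odc1 were oligodendrocyte progenitor-like cells (169 and 111.6 CPM) and fibroblast-like cells (125 and 148 CPM). Microglia-like cells had 75.4 CPM (67.2 to 84.2) and 83.3 CPM (75.6 to 91.6), above the macrophage-like cells in each library, which had 45.4 CPM (41.8 to 49.3) and 35.8 CPM (31.6 to 40.4). Neutrophil-like cells were lowest with 6.28 and 9.01 CPM. Of the 60-base words in the last 500 bases of its transcript 15.9% also occur in other genes, so its count is less certain than that of Arg1, for which none do.

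Slc7a2 (chromosome 8, 40862396 to 40922308, plus strand) was highest in astrocyte-like and Schwann-like cells, and macrophage-like cells were its main myeloid site. Astrocyte-like cells had 345 CPM (268 to 439) and 265 CPM (164 to 405), and Schwann-like cells had 145 CPM (115 to 181) and 113 CPM (90.4 to 140). Fibroblast-like cells (53.9 and 11.8 CPM, with 16 of 40 UMIs of the HDAC3 inhibitor library in 1 cell), mural-like cells (36.7 and 47.1 CPM) and ependymal-like cells (28.5 and 60.9 CPM) were lower, in an order that was not the same in the libraries. Oligodendrocyte-like cells held 1 and 0 UMIs. Macrophage-like cells had 12.4 CPM (10.5 to 14.5) and 9.28 CPM (7.21 to 11.8), with a UMI in 106 and 47 cells, whereas microglia-like cells had 0.485 and 0.585 CPM and neutrophil-like cells 0 UMIs. Endothelial-like cells, where Nos2 lay, held 1 and 0 UMIs of this transporter.

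**Figure D3:**
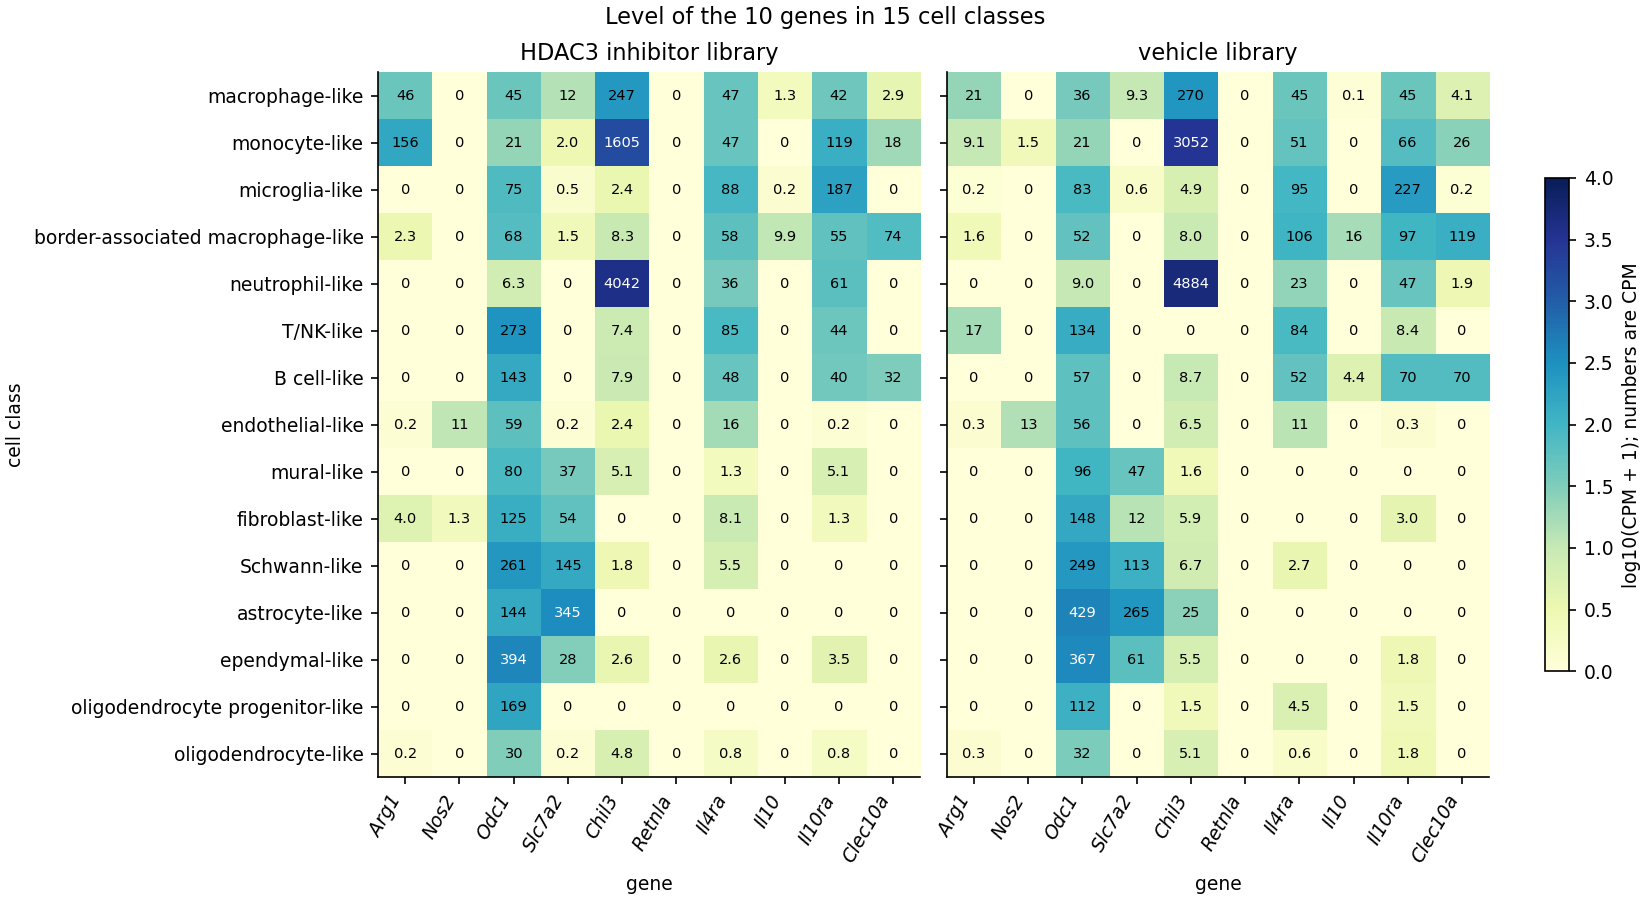
Level of the 10 genes (columns) in the 15 cell classes (rows) in each library, with CPM printed in the cells and colour on a log10(CPM + 1) scale. Arg1 lay in macrophage-like and monocyte-like cells, the latter at 156 CPM with 68 of 80 UMIs in 1 cell and at 9.06 CPM, Nos2 lay in endothelial-like cells, Odc1 was broad, Chil3 reached 4042 and 4884 CPM in neutrophil-like cells, and Retnla was 0 throughout.

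Among the named clusters Chil3 (chromosome 3, 106147554 to 106167564, minus strand) was highest in immature neutrophils and monocytes and reached macrophages at a lower level. Cluster 9, neutrophil-like cells led by the granule genes Ngp and Camp, had 5777 CPM (5596 to 5963) and 6289 CPM (6148 to 6432), with a UMI in 58 of 67 and 107 of 116 cells. Cluster 8, neutrophil-like cells led by Retnlg and S100a9, had 17.4 CPM (5.64 to 40.6) and 34.4 CPM (17.8 to 60.1). Within the neutrophil-like class Chil3 thus lay almost wholly in 1 of the 2 clusters. The unnamed cluster 14, with neutrophil, microglia and cycling genes, had 1956 and 3649 CPM of Chil3, from 2588 and 3054 UMIs. The ratio between the libraries there was 0.536 (0.508 to 0.565). Its 11 cells whose own markers were those of neutrophils held 2776 of these UMIs, at 12502.6 CPM.

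Among monocytes, cluster 16 had 2361 CPM of Chil3 (2190 to 2543) and 3439 CPM (3290 to 3592), with a UMI in 21 of 28 and 37 of 41 cells. Cluster 24 had 565 CPM (469 to 675) and 117 CPM (53.4 to 222), the latter from 9 UMIs in 8 cells. Neutrophil markers moved with Chil3 in cluster 24, where the 9 of them summed to 10163.7 CPM in the HDAC3 inhibitor library, with Ngp at 0, and to 181.6 CPM in the vehicle library, with 5 at 0. Among these markers S100a9 had 1048 and 8 UMIs and Retnlg 324 and 1. Camp and Ngp, which led the Chil3-rich cluster 9, had 1 and 0 UMIs and 0 and 2 UMIs. The part of these markers in the Chil3 difference was not tested.

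Macrophage-like cells had 247 CPM of Chil3 (238 to 256) and 269.6 CPM (258 to 282), with a UMI in 354 of 524 (67.6%) and 174 of 251 cells (69.3%). Oligodendrocyte-like cells, which should lack the gene, gave a background of 4.85 and 5.06 CPM. Microglia-like cells lay no higher than this, with 2.42 and 4.88 CPM and a UMI in 2.77% and 6.33% of cells. At 2000 UMIs per cell the shares were 31.8% and 35.5% in macrophage-like cells and 0.836% and 1.08% in microglia-like cells. For every 100 UMIs of Chil3, the neutrophil granule gene Camp had 584 and 508 UMIs in cluster 9, 0 and 0.298 in cluster 16 and 1.34 and 2.33 in macrophage-like cells. Of the 60-base words near the end of the Chil3 transcript 15.2% also occur in Chil4 and Gm6522.

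**Figure D4:**
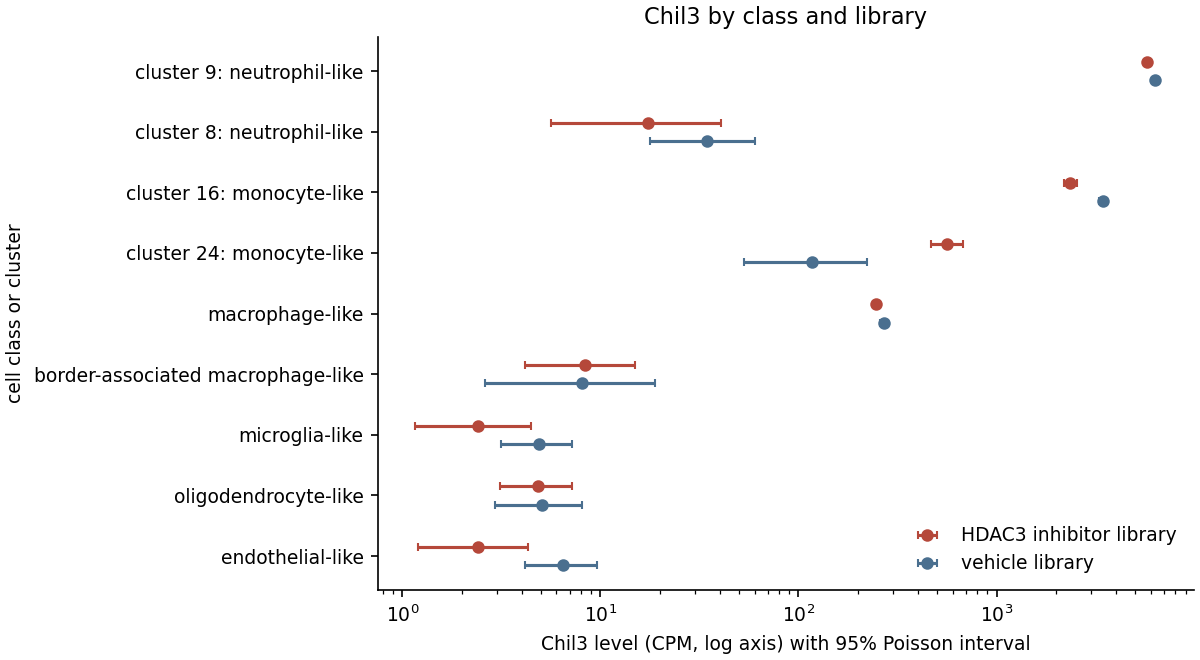
Chil3 level (CPM, log axis) by class or cluster and library with 95% Poisson intervals. Cluster 9 lies highest at 5777 and 6289 CPM, macrophage-like cells lie at 247 and 269.6 CPM, and microglia-like and oligodendrocyte-like cells lie near 5 CPM or under.

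Over the clusters Chil3 was followed most closely by Hp (r = 0.83), which encodes haptoglobin, the leukotriene receptor Ltb4r1 (0.83), Gm36161 (0.83), the cell cycle factor E2f2 (0.82) and Gm21188 (0.82). Retnla (chromosome 16, 48842551 to 48844461, plus strand), the other secreted label, had no UMI in any of 5118 cells. That allows 0.0794 CPM in the HDAC3 inhibitor library and 0.103 CPM in the vehicle library.

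Among the classes Clec10a (chromosome 11, 70156197 to 70170834, plus strand) was highest in border-associated macrophage-like cells. That class, of 114 and 49 cells, was led by Cd74, MHC class II genes, Pf4 and Mrc1. All 9 dendritic cell markers were also present in it in both libraries, at a sum of 176.6 and 199.6 CPM. The level of Clec10a there was 73.5 CPM (59.6 to 89.7) and 119 CPM (93.5 to 149.6), with a UMI in 39 of 114 and 17 of 49 cells. In the vehicle library 31 of the 74 UMIs sat in 1 cell. B cell-like cells followed with 31.7 and 69.7 CPM, from 4 and 16 UMIs. Cluster 16 had 27.0 and 29.0 CPM, macrophage-like cells 2.92 and 4.10 CPM, and microglia-like cells 0 and 1 UMIs.

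Cells with and without Clec10a differed in other markers inside the border-associated macrophage-like class. The mannose receptor Mrc1 was at 928 CPM in the 56 cells with Clec10a and 365 CPM in the 107 without, and the haemoglobin scavenger receptor Cd163 was at 191 and 91.9 CPM. Markers of dendritic cells went both ways: Cd209a was at 75.4 and 9.11 CPM and Siglech at 51.3 and 26.6 CPM, whereas Flt3 was at 14.4 and 34.9 CPM and Xcr1 at 0 and 24.3 CPM. In the B cell-like class 20 UMIs of Clec10a sat in 7 cells, all of which held Siglech, Flt3, Irf8 and Ccr9 and none of which held the B cell gene Cd79a. Over the clusters Clec10a was followed by H2-Aa (r = 0.94), H2-Eb1 (0.94), H2-Ab1 (0.92), Mgl2 (0.90) and Cd74 (0.89). Mgl2 is its close relative, and 18.6% of the 60-base words near the end of the Clec10a transcript also occur there, so reads of the pair may be split or lost.

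Il4ra (chromosome 7, 125552120 to 125579474, plus strand), the IL-4 and IL-13 receptor chain, was present in every white cell class. Microglia-like cells had 88.5 CPM (79.6 to 98.0) and 94.6 CPM (86.4 to 103), and T/NK-like cells 84.9 and 83.8 CPM. Border-associated macrophage-like cells had 57.6 and 106 CPM, from 76 and 66 UMIs, and so stood above microglia-like cells in the vehicle library only. Macrophage-like cells had 47.4 CPM (43.6 to 51.3) and 44.8 CPM (40.1 to 49.9), lower than microglia-like cells in both libraries. Cluster 8 neutrophils had 69.5 CPM (42.5 to 107) and 63.1 CPM (39.5 to 95.5), and cluster 9 neutrophils, which carried Chil3, 20.98 CPM (11.5 to 35.2) and 10.8 CPM (5.75 to 18.5). Microglia-like cells thus had more Il4ra than macrophage-like cells in each library, and almost no Arg1.

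Il10ra (chromosome 9, 45253837 to 45269149, minus strand) was highest in microglia-like cells among the named classes. Microglia-like cells held 1935 of its 3466 UMIs, with 187 CPM (174 to 201) and 227 CPM (214 to 240.3) and a UMI in 294 of 361 and 341 of 379 cells. Cluster 24 monocytes were not far below with 153 and 155.6 CPM, from only 33 and 12 UMIs. Cluster 8 neutrophils had 104 and 80.3 CPM, and macrophage-like cells 41.9 CPM (38.4 to 45.6) and 44.6 CPM (39.9 to 49.8). Oligodendrocyte-like cells, as background, had 0.808 and 1.79 CPM. The genes that followed Il10ra over the clusters were Bin2 (r = 0.97), Nckap1l, Snx20, Fermt3 and Plek (each 0.96), and Nckap1l, Fermt3 and Plek act in the cytoskeleton and adhesion of blood cells.

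Il10 itself (chromosome 1, 131019845 to 131024974, plus strand) was scarce, with 42 UMIs in all. Border-associated macrophage-like cells held 23 of them, at 9.86 CPM (5.25 to 16.9) and 16.1 CPM (7.72 to 29.6), in 8 of 114 and 4 of 49 cells. Macrophage-like cells held 16 and 1 UMIs, in 7 and 1 cells. Microglia-like cells, highest for the receptor, held 1 and 0 UMIs of the ligand.

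Receptors and the transporter were also counted together in single cells at 2000 UMIs. In microglia-like cells Il4ra was found in 20.2% of Il10ra-positive cells (15.5 to 25.5) and 18.4% of Il10ra-negative cells (15.002 to 22.2). In border-associated macrophage-like cells Il4ra was found in 7 of 21 Clec10a-positive cells (33.3%, 14.6 to 57.0) and 16.7% of the others (10.9 to 23.95). In Schwann-like cells Slc7a2 was found in 24.2% of Odc1-positive cells (17.1 to 32.6) and 17.1% of Odc1-negative cells (12.0 to 23.3). The intervals overlap in all 3 cases. In neutrophil-like cells Il10ra was found in 7.55% of Chil3-positive cells (3.96 to 12.8) and 17.4% of Chil3-negative cells (12.2 to 23.7). These intervals overlap only between 12.2 and 12.8. Chil3 in this class lay almost wholly in cluster 9, so the shares largely set cluster 9 beside cluster 8. Il10ra was at 42.0 and 37.4 CPM in cluster 9 and at 104 and 80.3 CPM in cluster 8.

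In macrophage-like cells Arg1 had the largest difference between the libraries among the 7 genes measured. It was 2.17 times as high in the HDAC3 inhibitor library (1.81 to 2.60), and it was the 1 gene of 7 measured with at least 50 UMIs that passed a 1.5-fold difference, beside 5.02% of all genes. With cells classed by their own markers its log2 ratio moved from 1.12 to 2.60. Slc7a2 was at 1.34 (0.998 to 1.80) and Odc1 at 1.27 (1.09 to 1.47), and with that classing Odc1 turned to a log2 ratio of -0.0097. Il4ra was at 1.06 (0.923 to 1.21), Il10ra at 0.939 (0.817 to 1.08), Chil3 at 0.916 (0.866 to 0.970) and Clec10a at 0.713 (0.429 to 1.20). The median log2 ratio was 0.08 over the 7 genes and 0.02 over all 9218 genes measured. Markers of other cells differed too in this class: the border-associated macrophage list summed to 631 and 468 CPM, the monocyte list to 257 and 202 CPM, the granulocyte-monocyte progenitor list to 22.8 and 8.74 CPM with Mpo and Ms4a3 at 0 in the vehicle library, and the neutrophil list to 196 and 362 CPM, with Ly6g at 0. Their part in the Arg1 difference was not tested. More cells with Arg1 and more Arg1 per cell both enter the ratio.

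In monocyte-like cells 3 of 4 measured genes passed 1.5-fold, beside 17.0% of all genes. Arg1 was 17.2 times as high in the HDAC3 inhibitor library (7.58 to 48.4), which rests on the 1 cell with 68 UMIs. Chil3 was at 0.526 (0.484 to 0.570), with 0.687 (0.629 to 0.749) in cluster 16 and 4.84 (2.47 to 10.8) in cluster 24. Il10ra was at 1.79 (1.20 to 2.71), with 1.73 (1.002 to 2.96) in cluster 16 and 0.982 (0.494 to 2.09) in cluster 24. The cluster 24 value rests on 33 and 12 UMIs. Il4ra was at 0.913 (0.518 to 1.59). The make-up of the class by cluster was 28 and 29 cells against 41 and 8.

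In microglia-like cells 0 of 3 passed, beside 5.06% of all genes. Il10ra was at 0.825 (0.752 to 0.904), Odc1 at 0.905 (0.779 to 1.05) and Il4ra at 0.935 (0.814 to 1.07). The unnamed cluster 7, with macrophage and microglia markers, had Odc1 at 1.54 (1.07 to 2.21) and Il4ra at 1.51 (1.01 to 2.27). Il10ra was at 1.32 (0.953 to 1.84) there, and the share of all genes was not counted for that cluster. In border-associated macrophage-like cells 3 of 4 passed, beside 15.1% of all genes, and all were lower in the HDAC3 inhibitor library: Il4ra at 0.542 (0.385 to 0.766), Il10ra at 0.565 (0.396 to 0.810) and Clec10a at 0.617 (0.451 to 0.847). The other, Odc1, was at 1.32 (0.876 to 2.05). Without the top cell of each library the log2 ratio of Clec10a moved from -0.70 to -0.13, and with cells thinned to 2000 UMIs it turned to 0.60. The thinned log2 ratio of Il10ra was -2.12 in place of -0.82. Neutrophil markers in this class summed to 82.6 and 1194.5 CPM, with Ly6g, Mmp8 and Cxcr2 at 0 in the HDAC3 inhibitor library, and monocyte markers to 649 and 328 CPM, and their part was not tested. In neutrophil-like cells 1 of 3 passed, beside 12.9% of all genes, namely Il4ra at 1.58 (0.956 to 2.61), an interval that includes equal levels. Il10ra was at 1.29 (0.899 to 1.85) and Chil3 at 0.828 (0.796 to 0.860), or 0.919 (0.883 to 0.955) in cluster 9 alone. The cells were split 100 and 67 against 87 and 116 between clusters 8 and 9.

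**Figure D5:**
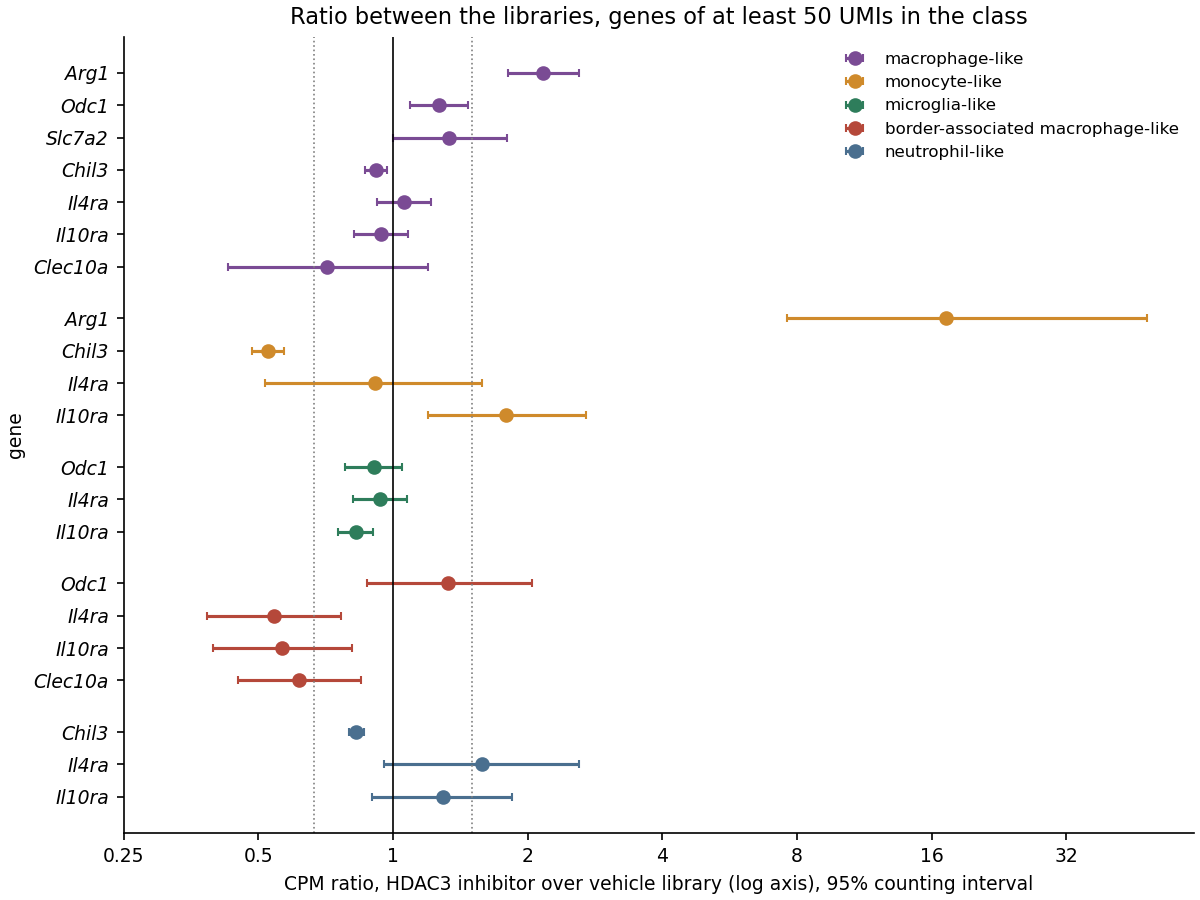
Ratio of CPM, HDAC3 inhibitor over vehicle library (log axis), for each gene with at least 50 UMIs in a myeloid class, with 95% counting intervals and dotted lines at 1.5-fold either way. Arg1 lies at 2.17 in macrophage-like and 17.2 in monocyte-like cells, and Il4ra, Il10ra and Clec10a lie between 0.542 and 0.617 in border-associated macrophage-like cells.

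Outside the myeloid cells Odc1 gave the widest spread between libraries among genes with at least 50 UMIs in a class. It was at 2.04 (1.18 to 3.75) in T/NK-like cells, 1.52 (1.05 to 2.17) in oligodendrocyte progenitor-like cells and 0.336 (0.196 to 0.571) in astrocyte-like cells, each from 51 cells or fewer a library. The 2 oligodendrocyte progenitor-like clusters were not alike. Odc1 was at 3.065 (1.73 to 5.46) in cluster 23 (10 and 30 cells) and 0.813 (0.490 to 1.32) in cluster 25 (16 and 20 cells). In the larger ependymal-like, Schwann-like and endothelial-like classes it was at 1.07 (0.907 to 1.27), 1.05 (0.838 to 1.31) and 1.04 (0.867 to 1.26). Slc7a2 was at 0.467 (0.280 to 0.781) in ependymal-like cells. In fibroblast-like cells, under that minimum with 40 and 4 UMIs, it was at 4.56 (1.65 to 17.5).

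The wider arginine pathway was read from lists of other genes. In macrophage-like cells 2 of 5 measured genes of the urea cycle and arginine supply were at least 1.5-fold higher in the HDAC3 inhibitor library and 0 lower, with a median log2 ratio of 0.44. The share of all genes was 5.02% here and 5.06% in microglia-like cells, which stands beside each list count of these classes. They were Ass1, which makes the precursor of arginine (16.6 and 8.05 CPM, 2.06 times, 1.54 to 2.80), and the arginine importer Slc7a1 (6.08 and 3.82 CPM, 1.59 times, 1.02 to 2.55). Asl, the next enzyme after Ass1, was at 26.8 and 26.9 CPM, and the exporter Slc7a7 at 42.2 and 41.0 CPM. In microglia-like cells 0 of 5 passed, and in monocyte-like cells, where the share of all genes was 17.0%, Ass1 was the 1 gene measured and was lower (85.9 and 139 CPM).

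Few genes passed in the lists of arginine products. Of nitric oxide synthases and the enzymes of their cofactor, 0 of 4 passed in macrophage-like cells (median 0.10), with Gch1, the first enzyme of the cofactor's synthesis, at 40.7 and 31.7 CPM. In microglia-like cells 1 of 4 passed, Spr (25.9 and 16.4 CPM). Of polyamine synthesis and turnover, 0 of 14 passed in macrophage-like and 0 of 14 in microglia-like cells, with medians of 0.00 and 0.01. There Oaz1, the antizyme that sends ornithine decarboxylase to breakdown, was at 968 and 848 CPM in macrophage-like cells, and Sat1, which acetylates spermidine, at 712 and 761 CPM. Of the path from ornithine to proline 0 of 5 passed in macrophage-like cells, with the aminotransferase Oat at 31.7 and 32.2 CPM. In monocyte-like cells 2 of 2 passed, beside 17.0% of all genes, Oat and the prolyl hydroxylase P4ha1 (103.5 and 54.3 CPM).

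Of IL-4 and IL-13 receptor signalling, 0 of 10 passed in macrophage-like and 0 of 9 in microglia-like cells, with Stat6, the factor behind the receptor, at 31.97 and 32.8 CPM in macrophage-like cells and Klf4 at 103 and 73.2 CPM. Of IL-10 receptor signalling 2 of 7 were higher in macrophage-like cells, the feedback inhibitor Socs3 (33.9 and 20.8 CPM, 1.63 times, 1.35 to 1.98) and the IL-1 antagonist Il1rn (15.4 and 8.74 CPM, 1.76 times, 1.32 to 2.37), and 0 of 7 passed in microglia-like cells. Of other alternative activation genes 1 of 9 was higher in macrophage-like cells, the scavenger receptor Msr1 (71.0 and 39.6 CPM, 1.79 times, 1.57 to 2.06), and 1 was lower, Retnlg, for which 1 vehicle cell held 106 of 152 UMIs. Trem2, Stab1 and Tgfb1 had ratios of 0.997, 1.04 and 0.961.

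Of classical activation genes 2 of 13 were higher and 3 lower in macrophage-like cells, with a median of -0.04. Cxcl10, an interferon-induced chemokine, was higher (54.5 and 15.02 CPM, and 35.7 and 10.3 CPM without the top cell of each library), as was Irf1 (17.4 and 11.6 CPM), with 40 of its 221 UMIs in the HDAC3 inhibitor library in 1 cell and levels of 14.3 and 11.2 CPM without the top cell of each library. The 3 lower genes rested on single vehicle cells, which held all 259 UMIs of Cxcl9, 26 of 27 of Il6 and 46 of 88 of Ccl5. Il1b (132 and 137 CPM), Tnf (18.6 and 15.02 CPM) and Cybb (320 and 328 CPM) did not pass.

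In monocyte-like cells, where 17.0% of all genes passed, the remaining lists gave the following counts. Of nitric oxide synthases and cofactor enzymes 1 of 2 was higher (Pts), and of polyamine genes 1 of 8 was higher (Azin1) and 1 lower (Dohh). Of IL-4 and IL-13 receptor signalling 2 of 5 were higher, the common gamma chain Il2rg (74.2 and 39.2 CPM) and the factor Klf4 (220.6 and 129.8 CPM). Of IL-10 receptor signalling 1 of 6 was lower (Bcl3). Of other alternative activation genes 2 of 5 were higher, the transglutaminase Tgm2 (162 and 67.9 CPM) and Retnlg (632 and 4.53 CPM), the latter also a neutrophil marker. Of classical activation genes 1 of 6 was higher (Fpr2) and 1 lower (Irf1).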

How the data were processed

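Single cells from cord taken 5 days after injury were analysed from the deposited count matrices, whole-number UMI counts per gene and barcode made by the authors; the matrix header records Cell Ranger 3.0.2. The submitters' processing notes name Cell Ranger, Seurat and mm10, with no settings. The matrices held 3423 and 2523 barcodes with 38957752 and 29726813 UMIs. Cells under 500 genes or 1000 UMIs, or over 15% mitochondrial UMIs, were left out (448 and 353), as were 21 and 6 cells that Scrublet called doublets. The rest were clustered with scanpy 1.11.5 and leidenalg 0.10.2 (2000 variable genes without the 10 studied here, 30 components, 20 neighbours, resolution 1). A cluster took a name where its marker score reached 2.5, led the next by 0.5 and rested on at least 3 markers at 20 CPM.

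UMIs were summed per class and library. Levels have exact Poisson intervals, ratios conditional binomial and shares Clopper-Pearson intervals, all at 95%, and a count of 0 was read as room for 3 UMIs. Lists were counted over genes with at least 50 UMIs in a class over both libraries. The ratio step was tested on simulated counts. Gene positions are from GENCODE M21 on GRCm38, which matched 30934 of 31053 gene IDs. From each list, the genes named were up to 4 with the most UMIs and those past 1.5-fold. Likeness was the Pearson r of log2(CPM + 5) over clusters, for genes with at least 200 UMIs. The genes and lists were chosen with earlier results of these data known.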

Additional observations from a re-analysis of the deposited data

Results flagged for a closer look

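Some genes differed between the libraries in opposite directions in different cells, with counting intervals on either side of equality. With 1 library per condition these differences were not tested. Values are differences between log2 ratios of the HDAC3 inhibitor to the vehicle library. For Chil3, cluster 24 of the monocyte-like cells (2.28) stood above macrophage-like cells (-0.13) by 2.40, above cluster 9 of the neutrophil-like cells (-0.12) by 2.40 and above cluster 16 of the monocyte-like cells (-0.54) by 2.82. The vehicle side of cluster 24 is 9 UMIs in 8 cells. For Il10ra, cluster 16 (0.79) stood above border-associated macrophage-like cells (-0.82) by 1.61 and above microglia-like cells (-0.28) by 1.07. For Odc1, astrocyte-like cells (-1.57, from 30 and 15 cells) stood below T/NK-like cells (1.03) by 2.60, below macrophage-like cells (0.34) by 1.92 and below oligodendrocyte progenitor-like cells (0.60) by 2.17. Within the last class Odc1 was at 1.62 in cluster 23 and -0.30 in cluster 25.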

How the results depend on the processing

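Of 91 alternative values for the comparisons the report turns on, 80 stayed within the counting interval of the main value, 9 moved outside it with the same sign and 2 changed sign. For the other ratios, levels and shares 337 stayed within the interval, 96 moved outside it and 2 with a main interval on 1 side of equality changed sign. Of those 96, 6 also changed sign, all for ratios whose main interval includes equality (Slc7a2, Il4ra and Il10ra in macrophage-like cells and Slc7a2 in astrocyte-like cells). All values here are log2 ratios of the HDAC3 inhibitor to the vehicle library, and the cause of each change was not tested. When cells were classed by their own markers, which left 170 and 74 macrophage-like cells, Arg1 in macrophage-like cells moved from 1.12 to 2.60, Chil3 from -0.13 to 0.28 and Odc1 from 0.34 to -0.0097. Without the top cell of each library Arg1 there was 1.53, and Clec10a in border-associated macrophage-like cells went from -0.70 to -0.13. With cells thinned to 2000 UMIs the latter was 0.60, Il10ra in the same class went from -0.82 to -2.12, and Chil3 in monocyte-like cells from -0.93 to -1.40. Chil3 in monocyte-like cells was -0.71 under the stricter cell filter, -0.54 in the largest cluster alone and -1.16 with each cell weighted alike, a weighting that gave -0.22 in macrophage-like cells. Under the stricter filter Chil3 in neutrophil-like cells turned from -0.27 to 0.17. Leaving out shared barcodes, and the 3% of cells with the highest doublet scores, were alternatives chosen after seeing the data. With 20 or 100 UMIs as the minimum, 9.05% or 2.96% of genes passed 1.5-fold in macrophage-like cells. No paired analysis was possible because each condition has 1 library. Il10, Retnla and Nos2 had few or no UMIs in myeloid cells, so depth limits what can be said of them there.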
